A study of Danio rerio with 32 samples.

Results

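Gene expression was measured in whole zebrafish larvae after exposure to 8 µM retene, an alkylated polycyclic aromatic hydrocarbon. The 4 pools exposed to 8 µM were compared with the 4 vehicle control pools, out of 32 pools in 8 groups. The other 6 groups received concentrations of retene between 0.205 and 50 µM, also with 4 pools each. Every group was wild type Tropical 5D fish, dechorionated and exposed statically beginning at 6 hours post fertilization (hpf) in 96-well plates. All groups carried dimethyl sulfoxide (DMSO) as the solvent, and the control received DMSO without retene. At 48 hpf, each pool of 9 morphologically normal larvae was homogenized and its mRNA was sequenced, so a pool averages fish and tissues. In such bulk samples, fewer cells of a type and less RNA per cell cannot be told apart. The labels number the pools 1 to 4 and do not say whether they came from separate spawns or plates. The p-values therefore measure only spread between pools. That spread was estimated within all 8 groups of the series, not only within the groups compared.

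The aryl hydrocarbon receptor (AHR) is a transcription factor that is activated by planar aromatic compounds. It enters the nucleus, pairs with Arnt and switches on genes such as those of the cytochrome P450 1 (CYP1) family, which oxidize aromatic rings. It also switches on its own repressor, so the pathway limits itself. In zebrafish, Ahr2 is the receptor that carries most of this response, and cyp1a is the usual readout of its activation.

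The table held 22686 genes, and the pools had between 7884778 and 8470113 reads on genes at 8 µM and between 8045230 and 8656870 in the control. A normalized read count is a gene's reads divided by the pool's size factor. The Log2FC is the difference between group means of the deposited values, which follow the log2 of the count for genes with many reads and understate changes of genes with few. A gene was called differentially expressed (a DEG) at a Benjamini-Hochberg adjusted p under 0.05 in limma. The median Log2FC over all genes was -0.0029, a value that the scaling by size factors centres near 0 beforehand, so a general shift could not be seen in it.

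Replicate 4 of the 8 µM group lay apart from its mates, and so did replicate 2 of the control. On the first principal component of all genes, which held 19.0% of the variance over 32 pools, replicate 4 had a score of 26.2, against -11.0, -10.4 and -0.361 for 8 µM replicates 1 to 3. Control replicate 2 had 30.3, against 5.06, 3.02 and 0.806 for the other control pools. The same 2 pools therefore sat at the same end of this axis, one in each group. On the third component, with 9.17% of the variance, the 8 µM pools had -3.29, -0.444, -5.59 and -9.51, and the control pools had 5.70, 7.88, 5.03 and 3.89. The groups did not overlap there. Across 22686 genes, the deviation of replicate 4 from its mates had a correlation of 0.609 with that of control replicate 2, given as a description since genes share pools. Both pools were lower in genes with a short genomic span and higher in genes with a long one. In the fifth of genes with the shortest spans, the median deviation was -0.0755 for replicate 4 and -0.0883 for control replicate 2 on the deposited scale, and in the fifth with the longest it was 0.0499 and 0.124. Spans include introns and were known for 95.9% of the genes with a mean normalized count of at least 10. Counts of DEGs are given below with and without these pools, as are the values of many single genes whose call or size turned on them. For some others, only the number of single-pool omissions that lost the call is given.

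With all pools, 78 of 22686 genes were called at 8 µM (0.344% of those tested), of which 60 were higher (0.264%) and 18 lower (0.0793%). Without replicate 4, 336 genes were called (1.48%), with 148 higher (0.652%) and 188 lower (0.829%). This larger number included 77 of the 78. Leaving out control replicate 2 in place of replicate 4 gave 48 DEGs (0.212%), 35 higher (0.154%) and 13 lower (0.0573%), and leaving out both also gave 48 (0.212%). Together 38 genes, 29 higher and 9 lower, were called in all 4 of these fits. The fits took the spread within groups from all 8 groups. With only the 8 µM and control pools fitted, 21 genes were called, and 18 without replicate 4. Every 8 µM pool lay above every control pool for 57 of the 60 that rose, an arrangement found for 2.83% of all genes. The 60 were called on these same pools, so this count carries no test. Most changes were small on the deposited scale, which understates those of genes with few reads. Ccn2b, for example, had a Log2FC of 0.52 while its mean count was 2.48 times that of the control. Ahrra had a Log2FC of 0.91 with mean counts of 70.7 at 8 µM and 11.6 in the control. With all pools, 5 genes changed by at least 1 on the Log2FC scale, 19 rose by 0.5 to 1 and 36 rose by less than 0.5. The median Log2FC was 0.42 for the genes that rose and -0.33 for those that fell. The least certain DEG had an adjusted p of 0.0499, and the nearest gene outside had 0.0530. Counts of called list members below are to be read beside the shares of all genes called here.

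**Figure D1:**
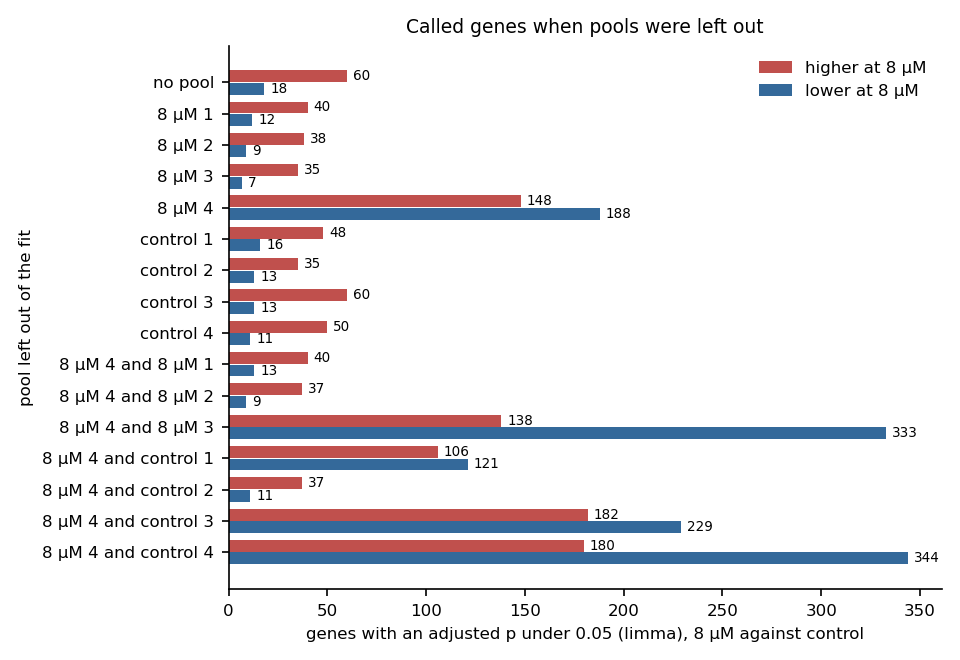
Number of genes with an adjusted p under 0.05 for 8 µM retene against control (horizontal axis) when the pools named on the vertical axis were left out of the limma fit, with genes higher at 8 µM above genes lower at 8 µM in each pair of bars. Leaving out 8 µM replicate 4 gave 148 and 188 genes, against 60 and 18 with all pools, and leaving out control replicate 2 as well gave 37 and 11.

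The strongest response was that of the CYP1 family. Of its 4 measured members, 3 rose and had the largest Log2FC values of all DEGs. The median Log2FC of the 4 was 2.39, against -0.0029 over all genes. For cyp1a, the normalized read counts were 3586, 3995, 4454 and 6102 at 8 µM, against 36.5, 20.0, 25.4 and 22.7 in the control. All 4 exposed pools lay far above every control pool, and replicate 4 was the highest. The mean was 173 times the control mean (Log2FC 5.45, SE 0.24, adjusted p = 2.9e-17; without replicate 4, Log2FC 5.30, adjusted p = 1.4e-16). Cyp1c1, a family member expressed in embryos, had 1214, 1342, 1353 and 1652 at 8 µM, against 92.7, 61.0, 72.4 and 66.1 in the control. This was 19.0 times the control (Log2FC 3.21, SE 0.16, adjusted p = 4.3e-16; without replicate 4, Log2FC 3.13, adjusted p = 3.1e-15). Its neighboring paralog cyp1c2 had 164, 189, 225 and 269 at 8 µM, against 26.6, 27.6, 20.7 and 25.7 in the control (Log2FC 1.56, SE 0.13, adjusted p = 3.9e-10; without replicate 4, Log2FC 1.47, adjusted p = 3.6e-09). The groups did not overlap for any of these genes, and cyp1a, cyp1c1 and cyp1c2 were each highest in replicate 4. The member cyp1d1, which is known in zebrafish for not answering to AHR ligands, had 129.7, 109, 103 and 156 at 8 µM, against 123, 152, 131 and 111 in the control and was not called (Log2FC -0.04, SE 0.07, adjusted p = 0.93). Cyp1c1 and cyp1c2 are close paralogs. Reads that match both equally well cannot be assigned to either, and the authors counted only alignments with a quality of at least 10. None of 68 other cytochrome P450 genes was called with or without replicate 4, with a median Log2FC of 0.011.

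**Figure D2:**
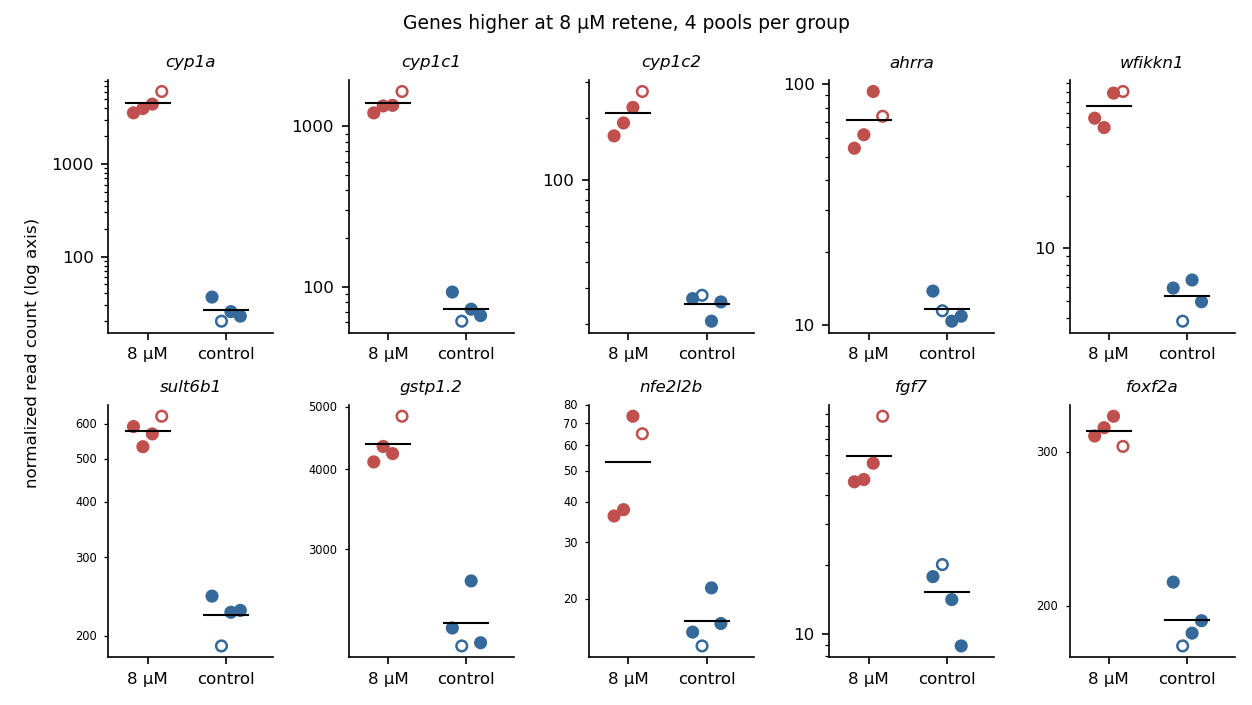
Normalized read counts on a log axis for 10 genes that rose at 8 µM retene, with 4 pools at 8 µM on the left of 4 control pools and a line at each mean. Open circles are 8 µM replicate 4 and control replicate 2. Every 8 µM pool lay above every control pool, for example from 3586 to 6102 against 20.0 to 36.5 for cyp1a.

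Among 9 genes for AHR receptors, partners and repressors, 1 rose. Ahrra, an AHR repressor that competes with the receptor for its partner, had 54.2, 61.7, 93.4 and 73.6 at 8 µM, against 13.8, 11.4, 10.3 and 10.9 in the control. Its mean was 6.09 times the control (Log2FC 0.91, SE 0.09, adjusted p = 4.0e-08; without replicate 4, Log2FC 0.90, adjusted p = 4.1e-07). Its paralog ahrrb was not called (Log2FC 0.01, adjusted p = 0.99). The receptor gene ahr2 had 761, 771, 783 and 1076 at 8 µM, against 591, 877, 561 and 623 in the control, so control replicate 2 lay above 3 of the 4 exposed pools. It was not called with all pools (Log2FC 0.32, adjusted p = 0.17) or without replicate 4 (Log2FC 0.21, adjusted p = 0.22), and it passed when control replicate 2 was left out alone (adjusted p = 0.0076) or with replicate 4 (Log2FC 0.34, adjusted p = 0.031). Tiparp, an ADP-ribosyltransferase known as an AHR target that damps the receptor, had 286, 308, 338 and 321 at 8 µM, against 307, 223, 218 and 200.3 in the control. Only control replicate 1 overlapped the exposed pools, and the gene missed the threshold with all pools (Log2FC 0.31, adjusted p = 0.064) and without replicate 4 (Log2FC 0.30, adjusted p = 0.054). The partner genes arnt and arnt2 are described with the pools that moved them.

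Single genes for conjugation and electron transfer rose as well. Sult6b1, a cytosolic sulfotransferase, had 591, 532, 569 and 624 at 8 µM, against 245, 189.6, 226 and 228 in the control. This was 2.61 times the control (Log2FC 1.10, SE 0.09, adjusted p = 1.9e-09; without replicate 4, Log2FC 1.06, adjusted p = 2.1e-08), and it was the 1 of 15 sulfotransferase genes that was called. Gstp1.2, a pi class glutathione S-transferase, had 4103, 4338, 4227 and 4834 at 8 µM, against 2261, 2121, 2677 and 2145 in the control (Log2FC 0.90, SE 0.11, adjusted p = 2.5e-06; without replicate 4, Log2FC 0.85, adjusted p = 2.4e-05), and it was the 1 of 18 such transferases that rose. None of 16 UDP-glucuronosyltransferase genes was called (median Log2FC 0.053). Cyb5a, the cytochrome b5 that passes electrons to P450 enzymes, had 583, 562, 513 and 536 at 8 µM, against 286, 317, 289 and 360.1 in the control (Log2FC 0.66, SE 0.09, adjusted p = 2.4e-05). Sult6b1, gstp1.2 and cyb5a kept their calls without each of the 8 pools in turn.

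Of 46 Nrf2 and antioxidant genes, 3 rose and none fell, with a median Log2FC of 0.092. Over all genes, 0.264% rose and 0.0793% fell. Nfe2l2b, a zebrafish paralog of the Nrf2 gene, had 36.2, 37.8, 73.7 and 65.0 at 8 µM, against 15.8, 14.3, 21.6 and 16.8 in the control. The exposed pools fell into a lower and a higher pair, both above the control (Log2FC 0.57, SE 0.09, adjusted p = 5.4e-04; without replicate 4, Log2FC 0.52, adjusted p = 0.0047). Hmox1a, the heme oxygenase that opens the heme ring, had 387, 176, 203 and 133 at 8 µM, against 109, 65.7, 95.0 and 111 in the control. It was highest in replicate 1 and lowest in replicate 4 of the exposed pools (Log2FC 0.74, SE 0.14, adjusted p = 0.0080; without replicate 4, Log2FC 0.89, adjusted p = 4.5e-04), and it missed the threshold without 8 µM replicate 1 or without control replicate 2 (highest adjusted p = 0.063). The autophagy receptor sqstm1 had 605, 557, 602 and 618 at 8 µM, against 454, 365, 449.5 and 429 in the control (Log2FC 0.41, SE 0.08, adjusted p = 0.010), and it lost its call without control replicate 2 (adjusted p = 0.082). Without replicate 4, 7 of the 46 were called, against 1.48% of all genes, the additions being nqo1, cbr1l, gpx4a and prdx3. For nqo1, a quinone reductase, the counts were 531, 565, 522 and 426 at 8 µM, against 385, 308, 369 and 425 in the control. The exposed pools lay above the control pools, by very little in replicate 4, and the gene was called without that pool (Log2FC 0.45, adjusted p = 0.018) but not with it (Log2FC 0.38, adjusted p = 0.084). The carbonyl reductase gene cbr1l had 527, 391, 383 and 332 at 8 µM, against 301, 227, 273 and 312 in the control (Log2FC 0.43, adjusted p = 0.053; without replicate 4, Log2FC 0.50, adjusted p = 0.012). When control replicate 2 was left out as well, nfe2l2b and hmox1a were the 2 genes of this list that were called.

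In the heme list, 2 of 20 genes rose, hmox1a and hmbsa. Hmbsa, an enzyme of the heme synthesis pathway, had 169, 212, 204 and 178 at 8 µM, against 134, 147, 137 and 141 in the control (Log2FC 0.29, SE 0.06, adjusted p = 0.010), and it missed the threshold without 8 µM replicate 2 or 3 (highest adjusted p = 0.082). Single genes of other metabolic pathways rose as well. Aoc2, a copper amine oxidase, had 242, 245, 249 and 236 at 8 µM, against 173, 131, 131 and 176 in the control (Log2FC 0.47, SE 0.08, adjusted p = 0.0020). Dhrs7cb, a short-chain dehydrogenase, had 1049, 1172, 1194 and 936 at 8 µM, against 858, 759, 864 and 834 in the control (Log2FC 0.35, SE 0.06, adjusted p = 0.0021; without replicate 4, Log2FC 0.42, adjusted p = 1.4e-04). It was the 1 of 76 aldehyde, alcohol and carbonyl oxidoreductase genes called with all pools. Fah, the enzyme of the last step of tyrosine breakdown, had 684, 560.4, 631 and 643 at 8 µM, against 459, 402, 484 and 417 in the control (Log2FC 0.43, SE 0.09, adjusted p = 0.018), and 4 of the 8 single-pool omissions moved it out (highest adjusted p = 0.094, without control replicate 2). Plin6, a perilipin that coats lipid droplets, was the only DEG lost without replicate 4 (Log2FC 0.34, adjusted p = 0.038 with all pools; Log2FC 0.30, adjusted p = 0.060 without it), and it was lost in 7 of the 8 omissions.

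Single genes for secreted regulators and for transcription factors rose as well. Wfikkn1 encodes a secreted protein that in mammals binds and blocks the TGF-β family ligands myostatin and GDF11. It had 56.4, 49.8, 78.6 and 80.3 at 8 µM, against 5.91, 3.81, 6.58 and 4.93 in the control, which was 12.5 times the control (Log2FC 1.08, SE 0.10, adjusted p = 1.2e-08; without replicate 4, Log2FC 1.03, adjusted p = 1.7e-07). With few reads in the control, its Log2FC on the deposited scale was much smaller than this ratio. Ccn2b, a connective tissue growth factor gene, had 51.0, 57.7, 76.7 and 68.9 at 8 µM, against 27.6, 23.8, 26.3 and 24.7 in the control (Log2FC 0.52, SE 0.07, adjusted p = 8.1e-05). These were the 2 of 85 TGF-β and BMP genes that rose, with a median Log2FC of -0.035 over the list. Fgf7, a fibroblast growth factor that signals to epithelia, had 45.7, 46.8, 55.0 and 88.0 at 8 µM, against 17.7, 20.0, 14.1 and 8.88 in the control (Log2FC 0.69, SE 0.11, adjusted p = 8.4e-04; without replicate 4, Log2FC 0.59, adjusted p = 0.0075), the 1 of 44 FGF genes called. Replicate 4 was the highest for fgf7 at 8 µM, and the groups did not overlap without it either.

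Of 58 forkhead factors, foxf2a and foxq1a rose. Foxf2a, which is expressed in mesenchyme of the head, had 313, 319, 329 and 304 at 8 µM, against 213, 180.1, 186 and 192 in the control (Log2FC 0.53, SE 0.07, adjusted p = 6.4e-06). The exposed pools were within a narrow range that lay above every control pool. Foxq1a had 107, 118, 143 and 169 at 8 µM, against 52.2, 50.5, 76.2 and 52.3 in the control (Log2FC 0.66, SE 0.12, adjusted p = 0.0045), and control replicate 3 was the control pool nearest to the exposed ones. It missed the threshold when replicate 4 and control replicate 2 were both left out (adjusted p = 0.076). The homeobox gene meox1, which acts in somites, had 159, 149, 142 and 130.1 at 8 µM, against 104, 96.2, 92.2 and 80.9 in the control (Log2FC 0.38, SE 0.07, adjusted p = 0.0030; without replicate 4, Log2FC 0.41, adjusted p = 0.0029). Prrx1a, a homeobox gene of limb and head mesenchyme, had 617, 601, 627 and 604 at 8 µM, against 461, 446, 538 and 507 in the control (Log2FC 0.28, SE 0.06, adjusted p = 0.022). It was lost in 5 of the 8 single-pool omissions, control replicate 2 among them (adjusted p = 0.14).

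Of 40 circadian clock genes, per2 and cry1a rose, against 0.264% of all genes. Both encode negative regulators of the clock whose transcripts are induced by light in zebrafish. Cry1a had 201, 201, 224 and 251 at 8 µM, against 83.8, 89.6, 135 and 143 in the control (Log2FC 0.64, SE 0.10, adjusted p = 1.7e-04; without replicate 4, Log2FC 0.59, adjusted p = 0.0015). Per2 had 120.2, 102, 165 and 215 at 8 µM, against 68.0, 78.1, 71.5 and 77.0 in the control, with the largest values in replicates 3 and 4 (Log2FC 0.57, SE 0.12, adjusted p = 0.015), and it was lost without 8 µM replicate 3 or control replicate 1 (highest adjusted p = 0.084) and without both pools that lay apart (adjusted p = 0.11). The median Log2FC of the 40 genes was 0.018. Cdkn1ba, which encodes a p27 inhibitor of cyclin-dependent kinases, had 342, 370.3, 390.2 and 390.2 at 8 µM, against 286, 261, 310.3 and 288 in the control (Log2FC 0.30, SE 0.07, adjusted p = 0.027) and was the 1 of 32 cell cycle inhibitor, p53 and gadd45 genes called. It was lost in 5 of the 8 omissions, control replicate 2 among them (adjusted p = 0.16).

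Single genes of the extracellular matrix were also among the DEGs. Mmp13a, a collagenase, had 120.2, 118, 131 and 98.5 at 8 µM, against 67.0, 52.4, 57.4 and 60.2 in the control (Log2FC 0.52, SE 0.10, adjusted p = 0.0096), and it missed the threshold without 8 µM replicate 3 (adjusted p = 0.061). Mmp2, a gelatinase, had 1350.4, 1442, 1395 and 1470.1 at 8 µM, against 1129.8, 1121, 1209 and 1142 in the control (Log2FC 0.28, SE 0.05, adjusted p = 0.0079). Its rise was small and neither group varied much. It was called without each pool in turn, but not without both pools that lay apart (adjusted p = 0.094). Mamdc2b had 22.3, 39.8, 27.5 and 19.1 at 8 µM, against 12.8, 10.5, 8.46 and 10.9 in the control (Log2FC 0.36, SE 0.08, adjusted p = 0.017), with replicate 4 the lowest of the exposed pools. Its call was lost in 4 of the 8 omissions, control replicate 2 among them (highest adjusted p = 0.13, without 8 µM replicate 2). The collagen triple helix repeat gene cthrc1a (Log2FC 0.39, adjusted p = 0.031) and the angiopoietin-like gene angptl7 (Log2FC 0.40, adjusted p = 0.016) rose too, and they were lost in 6 and 5 of the 8 omissions. Control replicate 2 was among these omissions for cthrc1a. None of 57 collagen genes was called with all pools.

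Of the genes with little or no annotation, lonrf1, a gene named for its LON domain and RING finger, had 301, 268, 293 and 387 at 8 µM, against 118, 95.3, 139 and 164 in the control (Log2FC 0.89, SE 0.11, adjusted p = 3.8e-06). GeneID.110366352, which RefSeq also lists under the name slincR, is a long noncoding RNA known in zebrafish as an AHR2-dependent transcript from the sox9b locus. It had 80.8, 103, 91.4 and 104 at 8 µM, against 29.6, 34.3, 32.9 and 23.7 in the control (Log2FC 0.75, SE 0.09, adjusted p = 8.1e-06; without replicate 4, Log2FC 0.72, adjusted p = 7.5e-05), and sox9b itself had 1047, 1092, 1219.7 and 1099 at 8 µM, against 1358, 1120.3, 1359.9 and 1168 in the control and was not called (Log2FC -0.15, adjusted p = 0.58). GeneID.103909114 had 60.6, 58.7, 47.2 and 144 at 8 µM, against 29.6, 21.0, 14.1 and 26.6 in the control, so replicate 4 was far above its mates (Log2FC 0.69, SE 0.13, adjusted p = 0.0032; without replicate 4, Log2FC 0.50, adjusted p = 0.013). Lonrf1 and these GeneID entries were called without each pool in turn, as were 27 others that rose and 6 that fell, 36 of the 78 in all. Of these 36, 31 were also called without replicate 4 and control replicate 2 together, and GeneID.103909114 was among the 5 that were not (adjusted p = 0.0503). The study tabulates 19 genes as its strongest risers, and 16 of these were called here with and without replicate 4 and 13 without both pools. That list was chosen on these samples, so its count is not independent evidence.

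Without replicate 4, 188 genes were lower and 148 higher, but with all pools fewer genes fell, and by less on the Log2FC scale. All 18 had every exposed pool below every control pool, an arrangement found for 1.84% of the genes tested. They were called on these same pools, so this carries no test. Srsf1a, a splicing factor of the SR family, had 625, 573, 572 and 457 at 8 µM, against 974, 742, 1266 and 935 in the control. Its mean was 0.569 times that of the control (Log2FC -0.70, SE 0.12, adjusted p = 0.0021; without replicate 4, Log2FC -0.63, adjusted p = 0.012). It was the 1 of 76 splicing factor and hnRNP genes called. The gene zgc:111986 had 795, 813, 680.1 and 718 at 8 µM, against 1225, 1117, 1121 and 1143 in the control (Log2FC -0.56, SE 0.07, adjusted p = 2.4e-05; without replicate 4, Log2FC -0.54, adjusted p = 1.6e-04), and GeneID.101885028 had 667, 489.7, 631 and 584 at 8 µM, against 926, 755, 1018 and 995 in the control (Log2FC -0.56, SE 0.09, adjusted p = 3.1e-04). Neither has a described role in the annotation used. Psip1b, a chromatin-binding coactivator, had 239, 200.1, 230.0 and 211 at 8 µM, against 334, 383, 317 and 422 in the control (Log2FC -0.55, SE 0.11, adjusted p = 0.017), and control replicate 2 was among the 4 pools whose omission took it past the threshold (highest adjusted p = 0.091).

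The falls included 2 of 78 DNA replication and mitosis genes, against 0.0793% of all genes. Ccnf encodes cyclin F, the substrate receptor of a ubiquitin ligase active late in the cell cycle, and it had 164, 195, 148 and 171 at 8 µM, against 271, 254, 220.1 and 242 in the control (Log2FC -0.38, SE 0.06, adjusted p = 2.7e-04; without replicate 4, Log2FC -0.39, adjusted p = 0.0010). Tk1, the thymidine kinase of S phase, had 190.3, 195, 233 and 208 at 8 µM, against 293, 302, 297 and 281 in the control (Log2FC -0.37, SE 0.07, adjusted p = 0.0028; without replicate 4, Log2FC -0.38, adjusted p = 0.0075). Both were called without each pool in turn, whereas the median Log2FC of the 78 genes was -0.013. Gatad2ab, a subunit of the NuRD chromatin complex, had 325, 311, 292 and 283 at 8 µM, against 400.2, 458, 415 and 427 in the control (Log2FC -0.39, SE 0.07, adjusted p = 0.0038). Its call held without each single pool but not without both pools that lay apart (adjusted p = 0.075). The protease gene tpp2 (Log2FC -0.31, adjusted p = 0.0081), the topoisomerase gene top1a (Log2FC -0.28, adjusted p = 0.034), the deubiquitinase gene usp22 (Log2FC -0.27, adjusted p = 0.028), the nuclear export receptor gene xpo1a (Log2FC -0.27, adjusted p = 0.044) and the acidic nuclear phosphoprotein gene anp32a (Log2FC -0.26, adjusted p = 0.022) were lower as well. Each of these 5 was lost in 3 to 7 of the 8 single-pool omissions, with control replicate 2 among them for xpo1a.

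**Figure D3:**
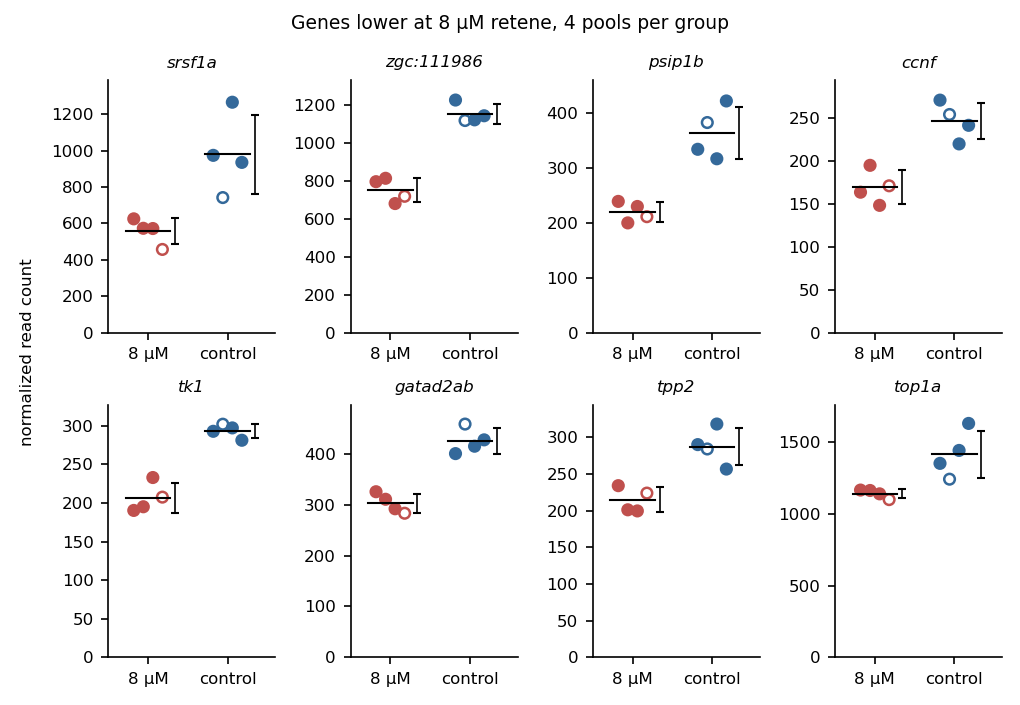
Normalized read counts, on axes from 0, of 8 genes that fell at 8 µM retene, with 4 pools at 8 µM on the left of 4 control pools, a line at each mean and a bar of 1 SD beside it. Open circles are 8 µM replicate 4 and control replicate 2, and for tk1 the exposed pools ran from 190.3 to 233 against 281 to 302 in the control.

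Of 61 heat shock factor and chaperone genes, hsf2 (Log2FC 0.39, adjusted p = 0.020) and the small heat shock protein gene hspb6 (Log2FC 0.51, adjusted p = 0.022) rose, and the Hsp40 gene dnaja1 (Log2FC -0.33, adjusted p = 0.043) fell. For hspb6 the counts were 132, 162, 126 and 132 at 8 µM, against 81.8, 45.7, 80.9 and 94.7 in the control, with control replicate 2 the lowest. Pdia6, a disulfide isomerase of the endoplasmic reticulum, fell (Log2FC -0.33, adjusted p = 0.031) and was the 1 of 35 unfolded protein and stress response genes called. None of hsf2, hspb6, dnaja1 and pdia6 was called without control replicate 2 (highest of their adjusted p values without any single pool, 0.20 for dnaja1).

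The ribosomal protein and respiratory chain lists had medians above that of all genes, with few members called. The median Log2FC of 88 cytosolic ribosomal protein genes was 0.144, with 1 called, and of 100 nuclear respiratory chain genes 0.111, with 1 called, against -0.0029 for all genes. Without replicate 4 the medians were 0.182 and 0.149, with 7 called in each list, against 1.48% of all genes. Without control replicate 2 alone they were 0.0885 and 0.0808, with 0 and 1 called. Without both pools they were 0.123 and 0.108, with 0 and 1 called. Other lists of widely used genes varied. The 51 proteasome subunit genes had a median of 0.0896, with none called, and 0.0687 without both pools. The median was 0.0038 for 76 splicing factor and hnRNP genes and 0.0019 for 17 histone genes. Ribosomal protein genes took 6.42%, 6.48%, 6.15% and 5.91% of the normalized counts of the 8 µM pools, against 5.99%, 5.33%, 5.98% and 5.84% in the control. Replicate 4 had the lowest share at 8 µM and overlapped the control, and control replicate 2 had the lowest share of all 8 pools. Respiratory chain genes took 1.14%, 1.17%, 1.13% and 1.06% at 8 µM, against 1.09%, 0.99%, 1.09% and 1.10% in the control. The same 2 pools were again the lowest of their groups. Rps9, a protein of the small ribosomal subunit, had 2528, 2477, 2438 and 2318 at 8 µM, against 1882, 1712, 2139.5 and 1857 in the control (Log2FC 0.35, SE 0.08, adjusted p = 0.022). The translation initiation factor gene eif1 rose as well (Log2FC 0.34, adjusted p = 0.022). Rps9 and eif1 lost their calls without control replicate 2, with adjusted p values of 0.14 and 0.17. Ndufv3, a subunit of respiratory complex I, had 1194, 1208, 1165 and 1042 at 8 µM, against 855, 674, 738 and 977 in the control (Log2FC 0.47, SE 0.08, adjusted p = 0.0011) and held without each pool in turn.

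The mitochondrial genes ND2 and ND4L, which encode other complex I subunits, also rose. ND2 had 56972, 60824, 60502 and 49930.0 at 8 µM, against 46997, 44382, 47176 and 45522 in the control (Log2FC 0.31, SE 0.06, adjusted p = 0.016; without replicate 4, Log2FC 0.37, adjusted p = 0.0017). ND4L had 10086, 9984, 9661 and 8389 at 8 µM, against 8069, 7067, 7776 and 8576 in the control (Log2FC 0.27, SE 0.06, adjusted p = 0.038), and control replicate 4 overlapped 8 µM replicate 4. Both were lost in 5 or more of the 8 omissions, control replicate 2 among them (adjusted p = 0.24 for ND4L). Mitochondrial genes overlap, and which transcript such reads came from cannot be told apart.

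Tissue marker genes were examined for other changes. The 15 tissue lists held 588 genes, covering muscle, heart, neurons, radial glia, lens, retina, skin, ionocytes, notochord, hatching gland, pigment cells, vessels, red cells, yolk and liver, and macrophages and neutrophils. Of these, 1 gene, mmp13a, was called with all pools (0.17%), against 0.344% of all genes, so the count was near the background. The list medians ran between -0.045 and 0.116 on the Log2FC scale, with hatching gland genes at the upper end. Without replicate 4, 8 tissue genes were higher and 5 lower (2.21% together, against 1.48% of all genes), and without both pools 1 was called. The hatching gland list had a median deviation of -0.205 in control replicate 2, against -0.012, 0.037 and -0.020 in the other control pools, and keratin genes had -0.176 in it, against 0.007, -0.009 and 0.025. Without that pool the list medians were 0.066 for hatching gland genes and 0.039 for keratin genes, against 0.116 and 0.085 with all pools. None of the 41 heart, 69 skeletal muscle and 47 vessel genes was called with all pools, where the share over all genes was 0.344%, and without replicate 4 they held 1, 2 and 1 called genes.

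Leaving out replicate 4 added 259 DEGs, 89 higher and 170 lower. Of these, 88 and 157 had 8 µM replicates 1 to 3 beyond every control pool, an arrangement found for 6.61% (above) and 6.54% (below) of all genes. These genes were called on the same pools, so the counts carry no test. The added falls described next were among the largest by Log2FC or were named for their function after their values were seen. Kdm3b, a histone demethylase, had 144, 149, 241 and 554 at 8 µM, against 366, 675, 351 and 253 in the control. Replicate 4 lay above 3 of the 4 control pools, and control replicate 2 was the highest of all 8 pools. It was called without replicate 4 (Log2FC -0.86, adjusted p = 0.045), but not with all pools (Log2FC -0.54, adjusted p = 0.46) or without both (Log2FC -0.64, adjusted p = 0.23). Zswim5 had 465, 586, 913 and 1737 at 8 µM, against 1087, 1641, 1139.8 and 1009 in the control (Log2FC -0.83, adjusted p = 0.035 without replicate 4), and the host cell factor gene hcfc1a had 158, 164, 257 and 513 at 8 µM, against 366, 556, 378 and 266 in the control (Log2FC -0.75, adjusted p = 0.027 without it). As for kdm3b, 8 µM replicate 4 and control replicate 2 were the highest pools of their groups for both genes. For zswim5, replicate 4 lay above every control pool. Vangl2, a core gene of planar cell polarity, had 90.4, 109, 162 and 306 at 8 µM, against 239.6, 426, 231 and 168 in the control (Log2FC -0.74, adjusted p = 0.034 without replicate 4). Sox9a, a regulator of cartilage, had 315, 293, 481 and 858 at 8 µM, against 578, 852, 543 and 522 in the control (Log2FC -0.65, adjusted p = 0.046 without it), and smad4a, the common mediator of TGF-β and BMP signals, had 187, 239.9, 315 and 477 at 8 µM, against 364, 493, 356 and 341 in the control (Log2FC -0.51, adjusted p = 0.031).

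The AHR partner arnt belonged to the same set. Its counts were 5.32, 3.98, 13.8 and 34.4 at 8 µM, against 28.6, 61.0, 30.1 and 22.7 in the control, and it was called without replicate 4 (Log2FC -0.60, adjusted p = 0.022) but not with all pools (Log2FC -0.45, adjusted p = 0.21) or without both (Log2FC -0.49, adjusted p = 0.13). Arnt2 had 69.1, 85.6, 119.9 and 363 at 8 µM, against 202, 451, 159 and 126 in the control and was called in none of these fits (Log2FC -0.78, adjusted p = 0.061 without replicate 4). The vesicular glutamate transporter gene slc17a6b, a neuronal marker, had 9.57, 7.96, 24.6 and 77.5 at 8 µM, against 41.4, 77.2, 40.4 and 24.7 in the control (Log2FC -0.56, adjusted p = 0.045 without replicate 4). Replicate 4 stood in each case within or above the range of the control. The control mean was the highest of the 8 groups for arnt, arnt2, slc17a6b and kdm3b, so these differences were not particular to 8 µM. For arnt the mean counts were 35.6 in the control, 16.6 at 0.205 µM and 14.4 at 8 µM.

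**Figure D4:**
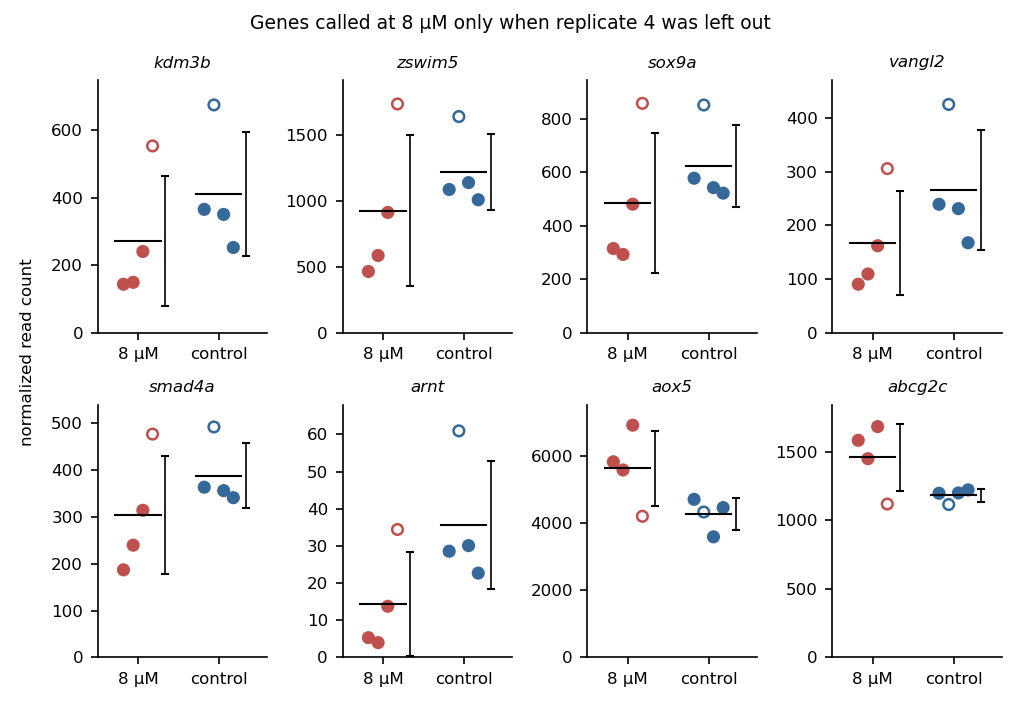
Normalized read counts, on axes from 0, of 8 genes called only when 8 µM replicate 4 was left out, with 4 pools at 8 µM on the left of 4 control pools, a line at each mean and a bar of 1 SD beside it. Open circles are 8 µM replicate 4 and control replicate 2, which were the highest of their groups for kdm3b (554 and 675) and for the other 5 falls shown, whereas replicate 4 was the lowest 8 µM pool for aox5 and abcg2c.

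The added calls rested on control replicate 2 too. It was the highest control pool for 145 of the 170 added falls (85.3%, against 33.6% of all genes), and replicate 4 was the highest 8 µM pool for 167 of them (98.2%, against 30.6%). For the 89 added rises, control replicate 2 was the lowest control pool in 63 (70.8%, against 30.6%) and replicate 4 the lowest 8 µM pool in 82 (92.1%, against 32.7%). These shares describe genes chosen for their values in the same pools, so they carry no test. When control replicate 2 was left out beside replicate 4, 3 of the 259 were still called, GeneID.103910005 (Log2FC -0.43, adjusted p = 0.015), GeneID.110438115 (Log2FC -0.62, adjusted p = 0.045) and abcg2c (Log2FC 0.35, adjusted p = 0.048), an ABC transporter gene. When control replicate 1, 3 or 4 was left out in its place, 140, 200 and 218 of the 259 were still called. The number of DEGs depended on exposed pools as well. It was 53, 46 and 471 in all when 8 µM replicate 1, 2 or 3 was left out beside replicate 4, and 48 when control replicate 2 was. The added falls had a median genomic span of 36.2 kb and the added rises 8.09 kb, against 21.4 kb over all genes with a mean of at least 10. For DEGs with all pools, the median span was 9.88 kb for the rises and 22.7 kb for the falls, so the rises were short there too. The part of gene span in these calls was not tested.

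Among the added rises, aox5, an aldehyde oxidase of pigment cells, had 5828, 5585, 6918 and 4205 at 8 µM, against 4709, 4332, 3592 and 4464 in the control (Log2FC 0.51, adjusted p = 0.038 without replicate 4). The chemokine receptor gene cxcr4a had 70.2, 70.7, 83.5 and 45.9 at 8 µM, against 34.5, 35.2, 49.8 and 32.6 in the control (Log2FC 0.44, adjusted p = 0.015 without it). Abcg2c had 1585, 1451, 1686 and 1120.0 at 8 µM, against 1199, 1117, 1201 and 1223 in the control (Log2FC 0.38, adjusted p = 0.0098 without it). In aox5, cxcr4a and abcg2c replicate 4 lay within the control range, while replicates 1 to 3 lay above it.

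Set against the neighboring concentrations, 8 µM differed from 3.2 µM in 7 genes (0.0309% of those tested), 6 higher (0.0264%) and 1 lower (0.00441%). The 6 that were higher at 8 µM were all among the DEGs against the control. Cyp1c1 had 1214, 1342, 1353 and 1652 at 8 µM, against 481, 382, 415 and 971 at 3.2 µM (Log2FC 1.24, adjusted p = 1.2e-04). The groups did not overlap, and 3.2 µM replicate 4 was the nearest pool. Ahrra had 54.2, 61.7, 93.4 and 73.6 at 8 µM, against 17.6, 23.3, 12.4 and 41.5 at 3.2 µM (Log2FC 0.66, adjusted p = 2.4e-04). Cyp1a had 3586, 3995, 4454 and 6102 at 8 µM, against 1554, 1277, 1517 and 3422 at 3.2 µM (Log2FC 1.26, adjusted p = 0.037). Sult6b1 (Log2FC 0.53, adjusted p = 0.012), cyp1c2 (Log2FC 0.71, adjusted p = 0.012) and si:ch211-229d2.5 (Log2FC 0.43, adjusted p = 0.0093) completed the rises. Atp1a1a.3, a sodium pump subunit gene, was lower, with 68.1, 58.7, 58.0 and 72.7 at 8 µM, against 91.9, 118, 112 and 98.5 at 3.2 µM (Log2FC -0.37, adjusted p = 0.044). Without 8 µM replicate 4, 3 genes were called, cyp1c1 (adjusted p = 0.0012), ahrra (adjusted p = 0.0018) and si:ch211-229d2.5 (adjusted p = 0.016), and cyp1a missed the threshold (adjusted p = 0.23). Leaving out 8 µM replicate 1 or 3 also gave 3 genes. At 3.2 µM, replicate 4 was the highest pool for cyp1c1, ahrra, cyp1a, sult6b1 and cyp1c2, and the lowest for si:ch211-229d2.5. For cyp1c2 the 3.2 µM pools had 91.9, 67.9, 59.9 and 199. No fit left out this pool, so its part in these calls was not tested.

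Against 20 µM, 12 genes differed (0.0529%), 1 higher (0.00441%) and 11 lower (0.0485%) at 8 µM, and 6 of the 12 were DEGs against the control. Cyp1c2 had 164, 189, 225 and 269 at 8 µM, against 475, 469, 514 and 466 at 20 µM (Log2FC -0.93, adjusted p = 1.8e-04). Ahrra had 54.2, 61.7, 93.4 and 73.6 at 8 µM, against 185, 173, 147 and 139 at 20 µM (Log2FC -0.69, adjusted p = 1.5e-04). Fgf7 had 45.7, 46.8, 55.0 and 88.0 at 8 µM, against 128, 168, 145 and 139 at 20 µM (Log2FC -0.73, adjusted p = 0.0021). The pools of the 8 and 20 µM groups did not overlap for these genes. Cyp1c1 (Log2FC -0.97, adjusted p = 0.0043), tiparp (Log2FC -0.39, adjusted p = 0.029) and cdkn1ba (Log2FC -0.34, adjusted p = 0.027) were lower at 8 than at 20 µM too, whereas cyp1a was not called in this contrast (Log2FC -1.01, adjusted p = 0.22). Osr1, a transcription factor of early mesoderm, was higher, with 197, 223, 225 and 217 at 8 µM, against 174, 163, 137 and 134 at 20 µM (Log2FC 0.35, adjusted p = 0.029). ND6, a complex I gene on the other mitochondrial strand, had 19678, 19608, 18081 and 16752 at 8 µM, against 34091, 24288, 29295 and 25620.4 at 20 µM (Log2FC -0.60, adjusted p = 0.0098). The authors counted with HTSeq's default settings, which use strand, but whether the library kit marked strand is not given in the sources used here, so reads of ND6 and of genes opposite to it may be mixed. Without 8 µM replicate 4, 11 genes were called, 1 higher (0.00441%) and 10 lower (0.0441%), and cyp1c2, ahrra, fgf7 and cyp1c1 were among them (adjusted p = 9.0e-05, 1.4e-04, 1.4e-04 and 0.0019). Without 8 µM replicate 2 or 3 there were 7 and 5.

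**Figure D5:**
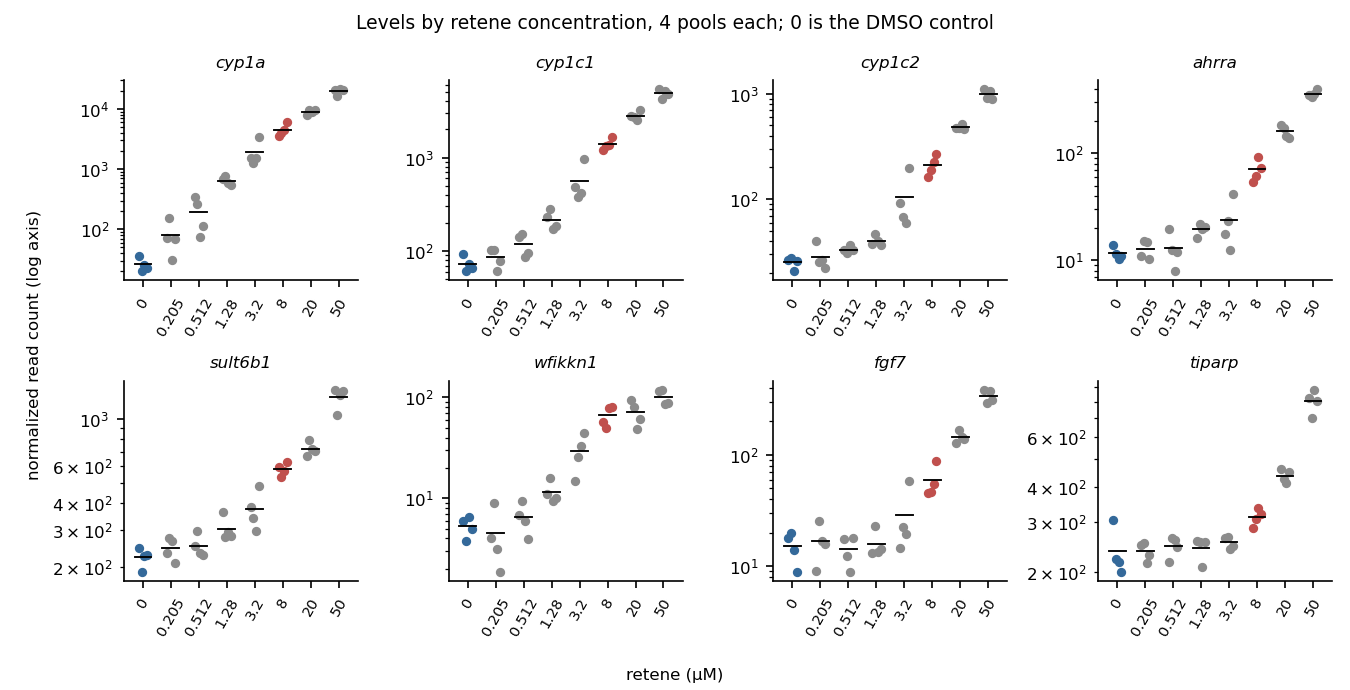
Normalized read counts on a log axis by retene concentration (horizontal axis, in µM, with 0 for the DMSO control) for 8 genes, as 4 pools per group and a line at each mean. The 8 µM pools lie between those at 3.2 and 20 µM for cyp1c1, with means of 562 at 3.2 µM, 1390.3 at 8 µM and 2810.0 at 20 µM, whereas wfikkn1 had means of 66.3 at 8 µM and 70.9 at 20 µM.

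Levels at and above 1.28 µM placed 8 µM on different parts of the curves. Mean counts of cyp1a were 26.1 ± 7.23 in the control, 643 ± 103, 1943 ± 994, 4535 ± 1104, 9090.1 ± 864 and 19827 ± 2210.4 with rising retene, at 1.28, 3.2, 8, 20 and then 50 µM (SD, n = 4 pools each). Each step in that order was larger than the SD of the lower group, but not every step was called. In limma, cyp1a did not pass between 8 and 20 µM. Between 3.2 and 8 µM it passed with all pools but not without 8 µM replicate 4. In the same order, mean counts of wfikkn1 were 5.31 ± 1.21 in the control, 11.6 ± 3.00, 29.4 ± 12.6, 66.3 ± 15.5, 70.9 ± 19.9 and 102 ± 17.8. Here 8 and 20 µM did not differ beyond their spread. Those of tiparp were 237 ± 47.4 in the control, 244 ± 23.9, 255 ± 11.9, 313 ± 22.0, 439 ± 23.2 and 802 ± 75.2, so the groups up to 3.2 µM lay together. The gene zgc:111986 followed another order, with 1152 ± 50.4 in the control, 723 ± 71.8, 660.2 ± 64.8, 752 ± 63.0, 1024 ± 116 and 999 ± 22.8. Its level was lower at 1.28, 3.2 and 8 µM than in the control, and it was lower at 8 than at 20 µM (Log2FC -0.40, adjusted p = 0.019). GeneID.101885028 had a like order of means, with 924 ± 119 in the control, 579 ± 73.4, 562 ± 65.3, 593 ± 76.6, 791 ± 48.6 and 790.3 ± 60.8, but its difference between 8 and 20 µM did not pass (Log2FC -0.37, adjusted p = 0.22). Srsf1a also had its lowest mean at 8 µM, with 979 ± 216 in the control, 621 ± 114, 682 ± 124, 557 ± 71.0, 784 ± 105 and 836 ± 28.5. Of the 18 DEGs that fell, 15 had a higher mean level at 20 than at 8 µM, as had 32 of the 60 that rose. These DEGs were chosen for their values at 8 µM, so the counts carry no test.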

How the data were processed

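The mRNA of 32 pools of 9 whole larvae was sequenced in paired ends of 100 bp. The authors used STAR for alignment to the GRCz11 genome and HTSeq for counting, at an alignment quality of at least 10. The authors dropped genes with many counts of 0 and normalized with DESeq2. Versions are not given in the sources used here. The deposited values are log2-scale values of the authors, which fit DESeq2's variance-stabilizing transformation. Reversed, 100% gave whole reads (tolerance 0.01 reads), between 7720701 and 8656870 per pool. The spread between pools exceeds counting error, so no binomial intervals are given.

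Groups came from the sample labels. The deposited values of all 32 pools were fitted by limma (version 3.58.1, under R 4.3.3) as group means, with trended empirical Bayes moderation, and p-values were adjusted over 22686 genes by the Benjamini-Hochberg method. A pool was left out by refitting without it. An exact permutation test (two-sided) was run for each named gene, and its smallest p is 0.0286 with 4 pools against 4 and 0.0571 with 3 against 4. Every named gene whose 8 µM and control pools did not overlap reached 0.0286 with all pools. Groups that do not overlap always give this value, so it adds no support to those calls. The code was tested on simulated data in which no pool lay apart, so that test does not bear on the effect of such pools. Tables and plots were made with pandas 2.3.3 and matplotlib 3.10.9.

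Named genes are the 15 largest rises and 12 largest falls among DEGs whose groups did not overlap, the 12 and 15 largest of those gained without replicate 4, up to 4 members of each of 48 lists with the smallest p, the study's tabulated risers and the 6 largest rises and falls of the contrasts with 3.2 and 20 µM. Other DEGs were named for their function after their values were seen, as was sox9b. The lists and the comparison itself were chosen with earlier results of these data known. Names and genomic spans came from RefSeq annotation of GRCz12tu, which matched 21030 genes. The files rest on another build, GRCz11, so coordinates are left out. DESeq2 was not used here. Some genes are not reported here.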

Additional observations from a re-analysis of the deposited data

Results flagged for a closer look

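A pool lay far from the others of its group, by Dixon's ratio of the gap to the range in groups of 4, in 9 of the 192 groups examined. Chance alone flags about 1 in 20 of independent groups. These groups share pools, and genes were named for their values in them, so the number flagged cannot be judged against that share. The pools below are listed as a description. Control replicate 2 had a score of 30.3 on the first principal component, far above the other control pools, and it was the high pool for sox9a (852 normalized counts) and smad4a (493 normalized counts). Replicate 4 of 8 µM was the high pool for ahr2 (1076 normalized counts), GeneID.103909114 (144 normalized counts) and GeneID.103910005 (119.6 normalized counts). Control replicate 3 stood high for foxq1a (76.2 normalized counts) and cxcr4a (49.8 normalized counts) and 8 µM replicate 2 for hspb6 (162 normalized counts). The rises of foxq1a, GeneID.103909114 and hspb6 were also present as non-overlapping groups, whereas the calls for sox9a, smad4a, GeneID.103910005 and cxcr4a needed replicate 4 of 8 µM to be left out.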

How the results depend on the processing

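The count of 78 DEGs at 8 µM stayed within 1.5 times under the block, log2(normalized count + 0.5), a mean count of at least 10, no trend, quantile normalization, TMM factors, voom and pool weights (69 to 113). It was 21 when only the 8 µM and control pools were fitted, 39 at an adjusted p under 0.01, and 42 to 336 when single pools were left out. The lowest counts came without 8 µM replicate 3 (42), 8 µM replicate 2 (47) and control replicate 2 (48), and leaving out 8 µM replicate 4 and control replicate 2 together gave 48. Without replicate 4, the count of 336 was 171 with no trend, 18 with only the 8 µM and control pools, 42 at an adjusted p under 0.01 and 46 to 524 when another pool was left out as well (46 without 8 µM replicate 2, 53 without 8 µM replicate 1, 48 without control replicate 2 and 524 without control replicate 4). The split moved as well, to 165 higher and 300 lower with the replicate block, to 198 and 171 with quantile normalization and to 163 and 256 with pool weights, against 148 and 188. The contrast with 3.2 µM gave 7 DEGs, and 3 to 5 when an 8 µM pool was left out. The contrast with 20 µM gave 12, 6 on log2(normalized count + 0.5), and 5 to 11 when an 8 µM pool was left out. The cause of these shifts was not tested.

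The deviations of same-numbered 8 µM and control pools from their group means had correlations of 0.18, -0.32, 0.14 and -0.40. Of 4 exposed pools, 1 correlated best with its own number. These values cannot show whether the numbers pair the pools, since the pool that lay apart in each group shifts the group mean. With the replicate block the counts were 78 at 8 µM, 465 without replicate 4, 6 against 3.2 µM and 11 against 20 µM. Among genes named in the text, no called direction was reversed in 3124 combinations of a gene and an alternative setting, of which 435 lost the call and 53 gained it. Of the 78 DEGs, 17 were called in all 18 alternatives run, 16 higher and 1 lower. At this depth, genes with few reads have Log2FC values that understate their ratio.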
